A study of Mus musculus with 18 samples.

Results

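The proteasome is the barrel-shaped protease that degrades proteins tagged with ubiquitin in the cytosol and nucleus. Its core particle is built from an outer alpha ring, which gates entry, and an inner beta ring, in which only a few subunits cut. Interferon-responsive cells can replace those cutting subunits with the immunoproteasome subunits Psmb8, Psmb9 and Psmb10, which favour peptides suited to MHC class I presentation. A regulatory particle, made of a base of ATPases and a lid that removes ubiquitin, caps the core and feeds it substrates. Microglia, the resident macrophages of the brain, carry both kinds of catalytic subunit.

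The proteasome genes described here are the protein-coding genes whose symbol starts with Psma, Psmb, Psmc, Psmd, Psme, Psmf or Psmg followed by a digit. The rule found 50 genes among 21876 protein-coding identifiers, out of 55414 identifiers in the count table. They comprise 7 alpha-ring genes, 4 structural and 3 catalytic beta-ring genes, 3 immunoproteasome genes, 2 tissue-restricted core genes, 6 base ATPases, 3 further base subunits, 8 lid subunits, 7 assembly chaperones, 5 alternative activators and the inhibitor Psmf1. The symbol pattern also takes in Psmc3ip, a meiotic recombination factor and not a proteasome subunit, so 47 of the 48 genes tested belong to the proteasome or its assembly. A further 4 pseudogenes with matching symbols held 7 unique molecular identifiers (UMIs, tags that mark single captured molecules) in all libraries together and were left out.

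The study compared microglia purified from mouse brain by genotype and sex, with 5 libraries from male Chd8 knockout (KO), 5 from male wild-type (WT), 4 from female KO and 4 from female WT mice. All samples also carry the label HX, whose meaning is not stated. Chd8 encodes a chromatin remodeller. The labels do not name the allele, any Cre line, zygosity, strain, age or pooling of animals, so how far a KO library stands for loss of Chd8 cannot be stated. Libraries were made by bulk MARS-seq, which counts UMIs at the polyadenylated end of each transcript. In such bulk samples, fewer cells of a type and less RNA per cell cannot be told apart.

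Libraries held 435838 to 9149144 UMIs and fell into 3 ranges of reads per UMI, at 1.79 to 1.89 in 8 libraries, at 2.94 to 3.12 in 6 and at 5.52 to 7.26 in 4. These ranges were uneven across groups: 4 of 5 male KO and 3 of 5 male WT libraries were in the lowest range, against 1 of 4 female KO libraries and no female WT library, and no male library was in the highest range. The highest range held 1 female KO library and 3 of the 4 female WT libraries. Chd8 itself was at 104 ± 8.52 CPM (the gene's UMIs scaled to the library total) in male KO (SD, n = 5) and 152 ± 12.7 CPM in male WT libraries (n = 5), and at 123 ± 10.8 CPM in female KO (n = 4) and 166 ± 24.3 CPM in female WT libraries (n = 4). Its log2 fold change was -0.54 ± 0.10 in males (SE, edgeR adjusted p = 0.00171) and -0.44 ± 0.12 in females (edgeR adjusted p = 0.0547), and an end tag cannot show which part of the gene is lost. All 10 microglial markers checked had UMIs, with summed levels of 24901 to 39755 CPM. The library labelled female KO 33 stood apart: it was the shallowest, it held the most UMIs of 4 Y-linked genes among female libraries (9, mostly of Ddx3y and Uty at 10.3 CPM each, against 3 to 4 in the other, deeper female KO libraries and 0 to 1 in female WT libraries), and it had the highest microglial marker sum. In that library Ddx3y lay within the range of male libraries (1.09 to 28.9 CPM) and Uty above theirs (1.06 to 3.19 CPM), on 4 UMIs each. The other Y-linked genes, Eif2s3y at 0 CPM and Kdm5d at 2.57 CPM, lay below every male library (at least 7.47 and 5.97 CPM). The Xist level of female KO 33 was 25.7 CPM, against 38.7 to 105 CPM in the other female libraries and at most 0.869 CPM in male libraries. Some results are also given without it, and the main fit includes it throughout.

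Of the 50 genes, 48 passed the filter on low counts, among 10948 genes tested. The exceptions were Psma8, an alpha subunit of germ cells, which reached at most 5.99 CPM in any library, and Psmb11, the beta subunit of thymic epithelium, with no UMI in any library. The proteasome genes held 289900 UMIs in all. Their summed level was 5685 ± 178 CPM in male KO, 5703 ± 207 CPM in male WT, 5976 ± 586 CPM in female KO and 5815 ± 309 CPM in female WT libraries (SD, n = 5, 5, 4 and 4). The sum was 6827 CPM in female KO replicate 33 and 5408 to 6127 CPM in every other library. The SD of log2 CPM within groups had a median of 0.239 over the tested proteasome genes, against 0.339 over all genes tested. The proteasome genes were also the more abundant set, with a median log2 CPM of 6.30 against 4.81. The steadiest was Psme1, at 0.104, and the most variable was Psmd10, at 0.752.

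The first comparison asked how the proteasome genes differ between KO and WT microglia. In males 1 of the 48 genes, or 2.08%, was called: Psmg4, an assembly chaperone that pairs with Psmg3 to help build the alpha ring, was higher in KO. In females none was called, and averaged over the sexes 1 of 48, Psmb5, was lower in KO. Over all genes tested, 6.24% were called in males, 2.68% in females and 9.5% on average. With single libraries left out, these shares were 4.44% to 8.46%, 0.636% to 6.09% and 7.02% to 14.2%. The female share was 6.09% without female KO replicate 33. A call is an adjusted p under 0.05 in edgeR's quasi-likelihood test, with the Benjamini-Hochberg adjustment over all genes. The male count was 2 without female KO replicate 33 or 7 or male KO replicate 9, with Psme3 added, and 0 in 6 of the 7 settings below in which Psmg4 lost its call; without male WT replicate 37, the remaining one, it was 1, Psme3; the female count was 2 without female KO replicate 33, with Psmb5 and Psmd12. Among the 48, the median log2 fold change was 0.01 in males and 0.04 in females, and 3 genes in females had an unadjusted p under 0.05, and DESeq2 called 0 in females. The 95% interval of the fold change lay within 2-fold in either direction for all 48 genes in males and 45 in females, and within 1.41-fold for 29 in males and 24 in females, so smaller changes were not excluded for the rest. The KO effect differed between the sexes for 0 of 48 genes (edgeR), with 2 at an unadjusted p under 0.05 and 0 by DESeq2, against 0.237% of all genes.

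**Figure D1:**
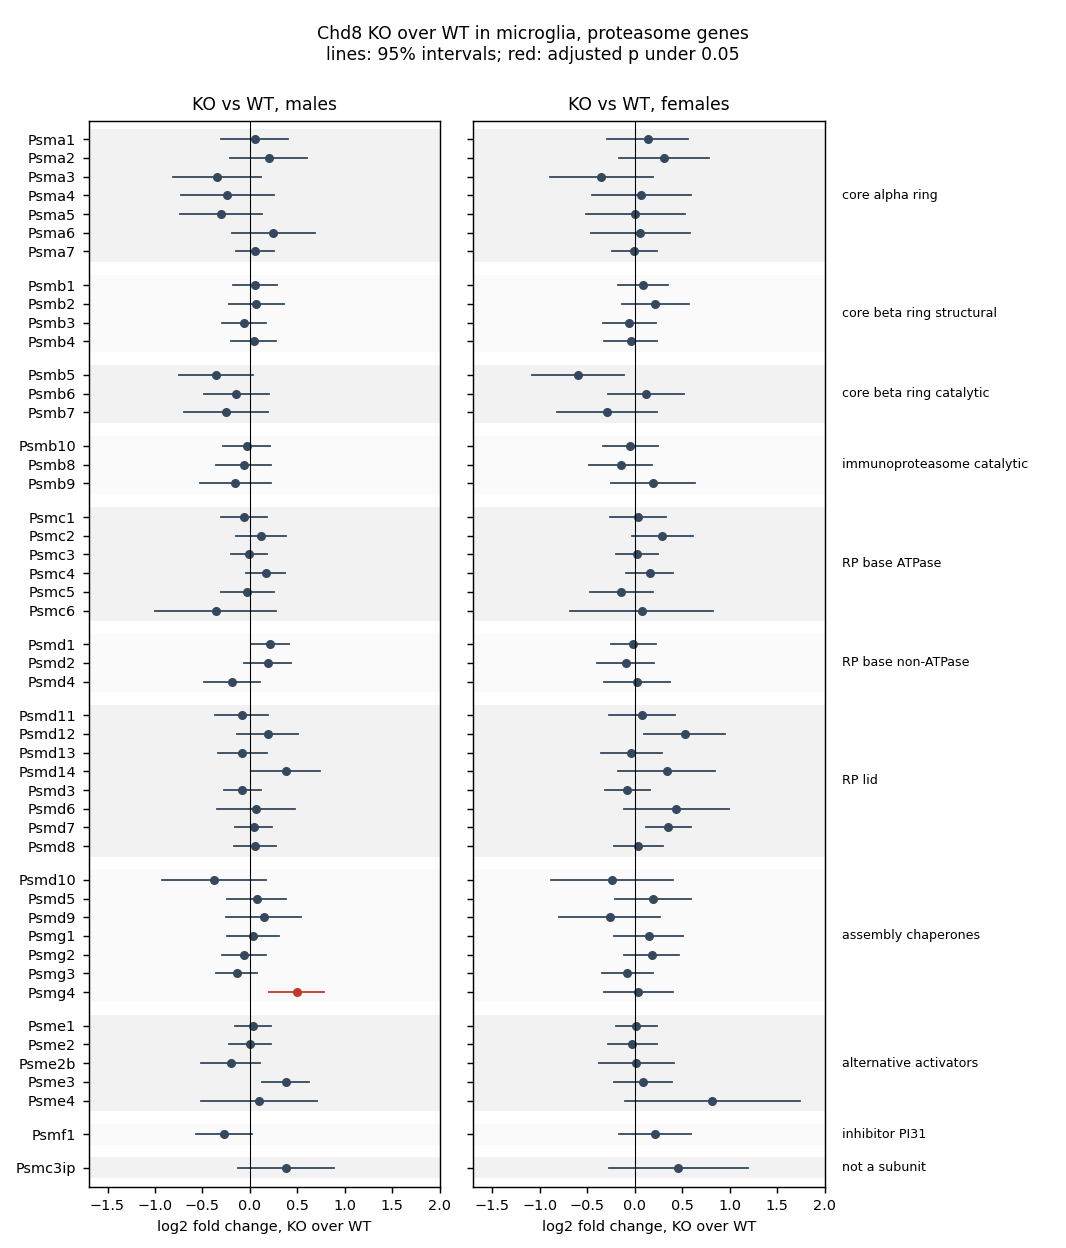
Log2 fold change of KO over WT (horizontal axis) for the 48 tested genes (vertical axis, grouped by role) in males (left) and females (right). Points are edgeR estimates and lines 95% intervals, and red marks an adjusted p under 0.05, which only Psmg4 reached, in males, at 0.49.

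Psmg4 had 41.3, 61.6, 49.3, 66.6 and 52.2 CPM in male KO replicates 36, 6, 9, 17 and 40, and 47.8, 34.4, 39.0, 35.6 and 35.4 CPM in male WT replicates 13, 37, 10, 11 and 14. Male KO replicate 36 lay below WT replicate 13, so the groups overlapped, and the other 4 male KO libraries were above every male WT library. Psmg4 thus differed by 0.49 ± 0.14 on the log2 scale (SE, edgeR adjusted p = 0.0344). Among females, the KO libraries averaged 51.7 ± 8.99 CPM of Psmg4 and the WT libraries 50.9 ± 5.17 CPM (SD, n = 4 each). The log2 fold change in males was above 0 in all 30 alternative settings and called in 19. The call was lost on leaving out male KO replicate 6, 17 or 40 (edgeR adjusted p = 0.0994, 0.118 and 0.0562) or male WT replicate 37, 10, 11 or 14 (edgeR adjusted p = 0.0942, 0.0662, 0.0857 and 0.0985). Marker sums of other brain cells also differed between these groups: neuron markers summed to 66.0 to 331 CPM in male KO and 13.5 to 37.4 CPM in male WT libraries, with all 7 of the list detected, and oligodendrocyte markers to 233 to 831 CPM in male KO and 100 to 152 CPM in male WT libraries. Astrocyte markers summed to 243 to 496 CPM in male KO and 132 to 177 CPM in male WT libraries, and border-associated macrophage markers to 153 to 244 CPM in male KO and 30.9 to 58.2 CPM in male WT libraries. Without male KO replicates 6, 9 and 17, whose neuron, astrocyte and oligodendrocyte sums were highest, the log2 fold change of Psmg4 was 0.30 (edgeR adjusted p = 0.535). That fit keeps only male KO replicates 36 and 40, of which replicate 36 had the lowest Psmg4 of the male KO libraries. It called 1.68% of all genes in males, against 6.24% in the main fit. The border-associated macrophage sum was highest in male KO replicates 36 and 6. The part of any of these other cells in the Psmg4 difference was not tested.

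The other 6 assembly chaperones, Psmg1, Psmg2, Psmg3 and the base chaperones Psmd5, Psmd9 and Psmd10, had log2 fold changes of -0.38 to 0.14 in males and none was called. Among the alternative activators, Psme3, which forms the nuclear activator ring, was at 87.0 ± 12.6 CPM in male KO and 67.0 ± 7.88 CPM in male WT libraries (SD, n = 5 each), a log2 fold change of 0.38 ± 0.12 that did not pass (edgeR adjusted p = 0.0652). It was called in males without female KO replicate 33 (edgeR adjusted p = 0.0458). The interferon-inducible activator pair Psme1 and Psme2 was not called, with log2 fold changes of 0.03 and 0.00 in males: the levels were 415 ± 24.5 CPM in male KO and 407 ± 22.6 CPM in male WT for Psme1, and 245 ± 22.6 CPM in male KO and 245 ± 19.6 CPM in male WT for Psme2 (SD, n = 5 each). Psme2b, a close copy of Psme2, shares 99.4% of 794 aligned transcript bases with it, so how reads split between the pair is uncertain. Psme4, the large single-chain activator, had the widest female interval, with a log2 fold change of 0.82 (edgeR adjusted p = 0.387).

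The catalytic subunits of the core were next compared with their immunoproteasome counterparts. In the main fit, Psmb8, Psmb9 and Psmb10 showed no called difference by genotype (0 of 3 in any contrast, sex included). The averaged log2 fold changes were -0.11 ± 0.11 for Psmb8, 0.02 ± 0.14 for Psmb9 and -0.04 ± 0.09 for Psmb10 (SE, edgeR adjusted p = 0.601, 0.967 and 0.857). Psmb8, the immunoproteasome counterpart of Psmb5, had 425, 408, 482, 415 and 400.3 CPM in male KO replicates 36, 6, 9, 17 and 40, and 445, 411, 490.5, 429 and 457 CPM in male WT replicates 13, 37, 10, 11 and 14. These groups overlapped throughout. In females it had 646, 351, 368 and 374 CPM in KO replicates 33, 16, 1 and 7, and 412, 557, 412 and 502 CPM in WT replicates 34, 39, 31 and 30. All 4 WT libraries lay above 3 of the KO libraries, and KO replicate 33 lay above them all. Without female KO replicate 33, the averaged log2 fold change of Psmb8 was -0.22 (edgeR adjusted p = 0.0484), which passes. The female one was then -0.37 (edgeR adjusted p = 0.055), which does not. On leaving out the 2 shallowest libraries, female KO replicate 33 and female WT replicate 34, Psmb8 was called lower in KO both in females and on average. Female KO replicate 33 was also the highest of its group for Psmb5, Psmb6, Psmb7, Psmb9 and Psmb10.

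Psmb5, the chymotrypsin-like subunit of the constitutive core, had 61.0, 56.9, 82.6, 64.2 and 46.1 CPM in male KO replicates 36, 6, 9, 17 and 40, and 63.6, 60.9, 70.1, 99.6 and 97.6 CPM in male WT replicates 13, 37, 10, 11 and 14. It had 131, 53.6, 64.4 and 59.6 CPM in female KO replicates 33, 16, 1 and 7, and 101, 99.2, 102 and 114 CPM in female WT replicates 34, 39, 31 and 30. Apart from KO replicate 33, every female KO library was below every female WT library, while male libraries overlapped. The averaged log2 fold change was -0.48 ± 0.15 (SE, edgeR adjusted p = 0.0466). It was -0.59 without female KO replicate 33 (edgeR adjusted p = 0.00264), and the female difference alone was then -0.82 (edgeR adjusted p = 0.0142).

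This call depended on how the range of reads per UMI was treated. With the range as a covariate the averaged log2 fold change of Psmb5 was -0.22 (edgeR adjusted p = 0.298), on read counts it was -0.05 (edgeR adjusted p = 0.94), and DESeq2 gave -0.43 (adjusted p = 0.072). Within the lowest range alone the male difference was -0.19 (edgeR adjusted p = 0.392). Only 6 of 28 alternatives kept the call, although all 28 kept the sign, and it was lost on leaving out any 1 of 14 libraries, with edgeR adjusted p = 0.0548 to 0.119: every female WT library, female KO replicates 16, 1 and 7, male KO replicates 36, 6, 17 and 40, and male WT replicates 10, 11 and 14. In the covariate fit, Psmb5 was higher in the highest than in the lowest range by 1.00 ± 0.21 on the log2 scale, Psmb7 by 1.05 ± 0.27, Psmb6 by 0.67 ± 0.20 and the base ATPase Psmc5 by 0.70 ± 0.15 (SE, edgeR adjusted p = 0.00636, 0.026, 0.0482 and 0.00912). Those 4 of 48 genes compare with 6.58% of all genes called between these ranges, and no proteasome gene was called between the middle and lowest ranges, where 0.274% of all genes were. The share of 4 in 48 is near that of all genes, and these 4 include all 3 constitutive catalytic subunits. Psmb6 was at 538 CPM in female KO replicate 33, against 254 to 295 CPM in female WT replicates 34, 31 and 30 of the same range. The fit of the ranges was not repeated without female KO replicate 33. Psmb5 lies on chromosome 14 (GRCm38, chr14:54614119-54618022, minus strand), 2.36 Mb from Chd8. Of 91 other genes tested within 5 Mb of Chd8, 13 were called on average (14.3%), against 9.5% of all genes tested. Of these 13, 5 were lower in KO, Psmb5 among them, and 8 were higher. Psme1 and Psme2, 3.32 and 3.33 Mb away, were not called. The part of this region in the Psmb5 difference was not tested.

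**Figure D2:**
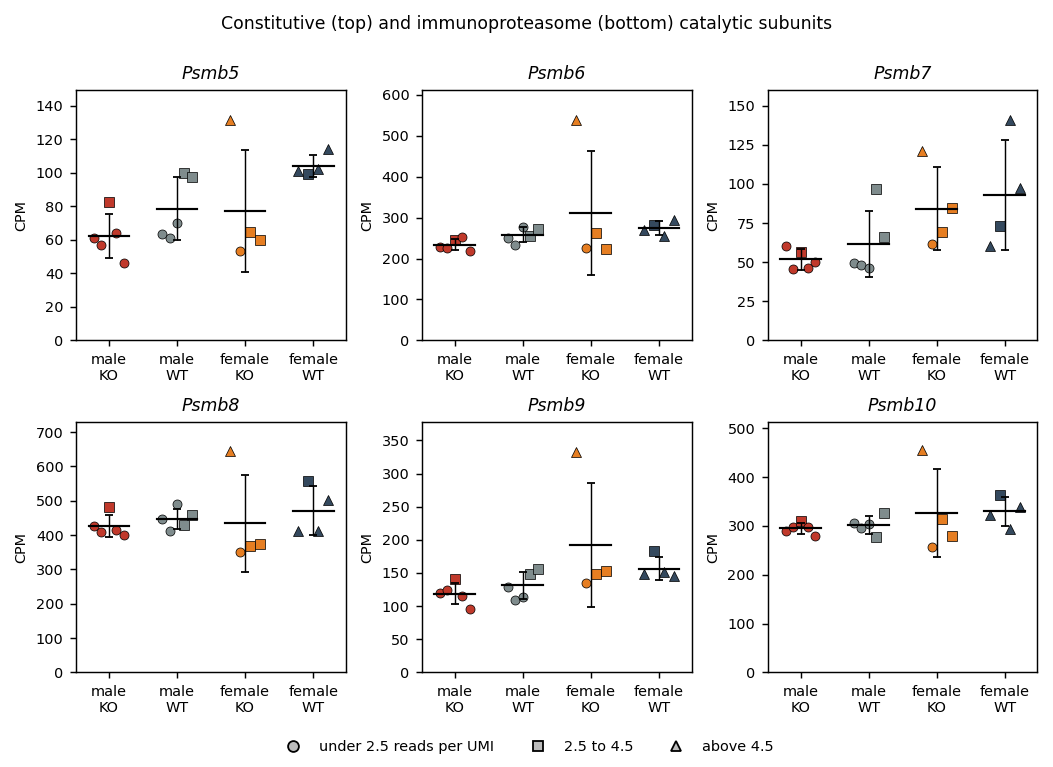
CPM (vertical axis) of the constitutive catalytic subunits Psmb5, Psmb6 and Psmb7 and the immunoproteasome subunits Psmb8, Psmb9 and Psmb10 in each library, by group. Symbols give the range of reads per UMI, horizontal bars the mean and whiskers the SD (n = 5, 5, 4 and 4); female KO replicate 33, at 131 CPM for Psmb5 and 646 CPM for Psmb8, is the highest point of its group in all 6 panels.

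The ratio of each immunoproteasome subunit to its constitutive counterpart was compared across libraries, since capture differs between genes and the ratio itself does not give the protein makeup. Psmb8 over Psmb5 was 7.03 ± 1.06 in male KO, 5.95 ± 1.34 in male WT, 5.87 ± 0.72 in female KO and 4.54 ± 0.738 in female WT libraries (SD, n = 5, 5, 4 and 4). By range of reads per UMI it was 6.47 to 8.68 in the lowest, 4.30 to 6.27 in the middle and 4.03 to 4.92 in the highest range, so no library of the lowest range overlapped the others. Psmb10 over Psmb7 was 5.77 ± 0.711 in male KO, 5.33 ± 1.5 in male WT, 3.94 ± 0.521 in female KO and 3.97 ± 1.5 in female WT libraries. Psmb9 over Psmb6 was 0.508 ± 0.0599 in male KO, 0.509 ± 0.071 in male WT, 0.615 ± 0.0479 in female KO and 0.57 ± 0.066 in female WT libraries. Because the ranges are uneven across the groups, the share of sex, genotype and range in these ratios cannot be told apart.

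**Figure D3:**
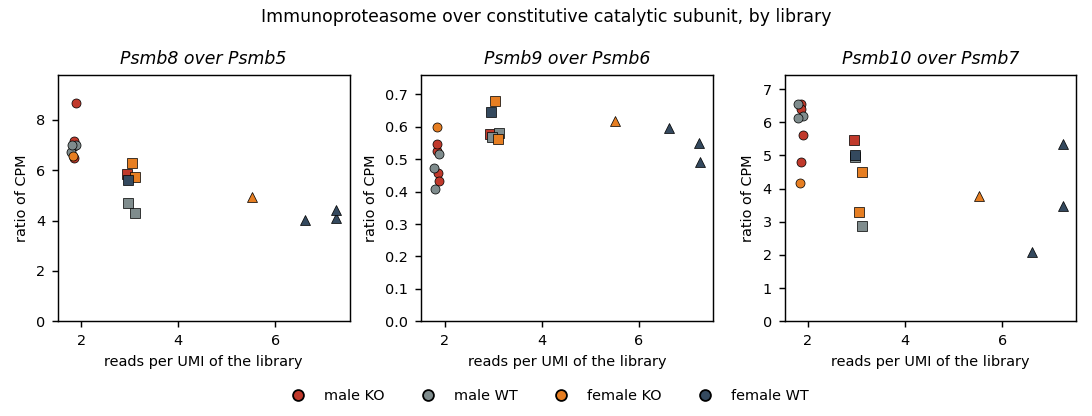
Ratio of the CPM of each immunoproteasome subunit to its constitutive counterpart (vertical axis) against the library's reads per UMI (horizontal axis), with 1 point per library coloured by group. Psmb8 over Psmb5 is highest in the libraries under 2.5 reads per UMI, at 6.47 to 8.68, and lowest above 4.5, at 4.03 to 4.92.

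Proteasome genes carry sites for several stress- and interferon-responsive factors, so the RefSeq promoter windows (GRCm38.p6, 250 bases before to 50 after each start) were searched on both strands; 42 of the 50 genes had a window. The letters TGACNNNGC, the antioxidant response element bound by Nfe2l1 and Nfe2l2, were in 6 of these genes and 13.3% of their 45 windows, against 12.4% of all 32851 windows. The letters GAAA, any NN pair and GAAA again, of the interferon regulatory factor type, were in 5 genes and 11.1% of their windows, against 3.44% of all, and the STAT-type letters TTCNNNGAA were in 3 genes and 6.67% of their windows, against 8.30% of all. A match is a description of letters and not a bound site. The matches in Psmb5, Psmb6, Psmg4, Psme1 and Psmb8 are given below 5′ to 3′ on the gene's strand, with the motif (or its reverse complement) in capitals. Positions are counted with +1 at the start.
Psmb5 (antioxidant type, at -47, chr14:54618026-54618050, minus strand): tgaagttgTGACGTCGCggcgttgc
Psmb6 (antioxidant type, at -9, chr11:70525340-70525364, plus strand): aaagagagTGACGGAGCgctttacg
Psmg4 (interferon regulatory factor type, at +16, chr13:34162971-34162996, plus strand): gcgcatctGAAAGTGAAAgagcgttc
Psme1 (interferon regulatory factor type, reverse complement, at +10, chr14:55578495-55578520, plus strand): agctgtgcTTTCGCTTTCccttcccg
Psmb8 (STAT type, at -97, chr17:34198090-34198114, plus strand): ctccgctgTTCCCAGAAgatgcccc
In the main fit, Psmb5 and Psmg4 were the 2 genes called by genotype. The antioxidant letters of Psmb5 were also in Psmb6, Psmc6, Psmd9, Psmd12 and Psme4. Those of Psmg4 were also in Psmb3, Psmd4, Psmd9 and Psme1. The part of these letters in the genotype differences was not tested.

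In the regulatory particle no genotype difference passed in the main fit. None of its 17 tested genes was called in males, in females or on average, and the median log2 fold change was 0.04 in males and 0.04 in females. The lid deubiquitinase Psmd14 had the largest male difference in the lid, 0.38 ± 0.18 (SE, edgeR adjusted p = 0.254), and the structural subunit Psmd12 the largest female one, 0.53 ± 0.20 (SE, edgeR adjusted p = 0.189). Without female KO replicate 33, Psmd12 was called in females, at 0.62 (edgeR adjusted p = 0.0481). Averaged over the sexes, Psmd12 was called higher in KO in 4 of 28 alternatives (lowest edgeR adjusted p = 0.0204). The lid gene Psmd7 was called higher in KO on average with the range of reads per UMI as a covariate, and with scaling by library totals (lowest edgeR adjusted p = 0.0242). With library totals Psmd7 was also called in females (edgeR adjusted p = 0.0415). The 7 alpha-ring genes had log2 fold changes of -0.34 to 0.25 in males and -0.35 to 0.31 in females, with 0 called in either sex in the main fit. Within the lowest range of reads per UMI alone, Psma2 and Psma6 were called higher in male KO (edgeR adjusted p = 0.0292 and 0.0112). Psmg4 was not called in that setting.

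Male and female libraries were next compared within each genotype. Between the WT libraries, 10 of 48 proteasome genes differed (20.8%, against 17.3% of all genes tested), 4 higher and 6 lower in males, against 6.94% of all genes higher and 10.3% lower. Between the KO libraries, 5 of 48 differed (10.4%, against 7.1% of all genes), 1 higher and 4 lower in males, against 2.83% of all genes higher and 4.27% lower. These shares are near those of genes at large. The WT count was 6 without female WT replicate 34 or male WT replicate 37, where 12.4% and 13.4% of all genes were called. The KO count was 14 without female KO replicate 16, where 15.9% of all genes were called. It was 1 without female KO replicate 1 or 7 (3.22% and 1.85% of all genes). It was 3 without male KO replicate 6 or 40 (4.65% and 4.2% of all genes). The 2 comparisons share no library, and 4 genes were called in both, Psma2, Psma4, Psmd10 and Psmd14, each in the same direction, which is 80% of the KO calls and 40% of the WT calls. Over all genes, 447 were called in both, 57.5% of the KO calls and 23.6% of the WT calls, and the uneven ranges of reads per UMI touch both comparisons. By role, 3 of 7 alpha-ring genes were lower in male than female WT libraries (Psma2, Psma3 and Psma4), while 3 of 8 lid genes were higher (Psmd6, Psmd12 and Psmd14). The immunoproteasome subunits and the alternative activators had no call in either comparison.

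**Figure D4:**
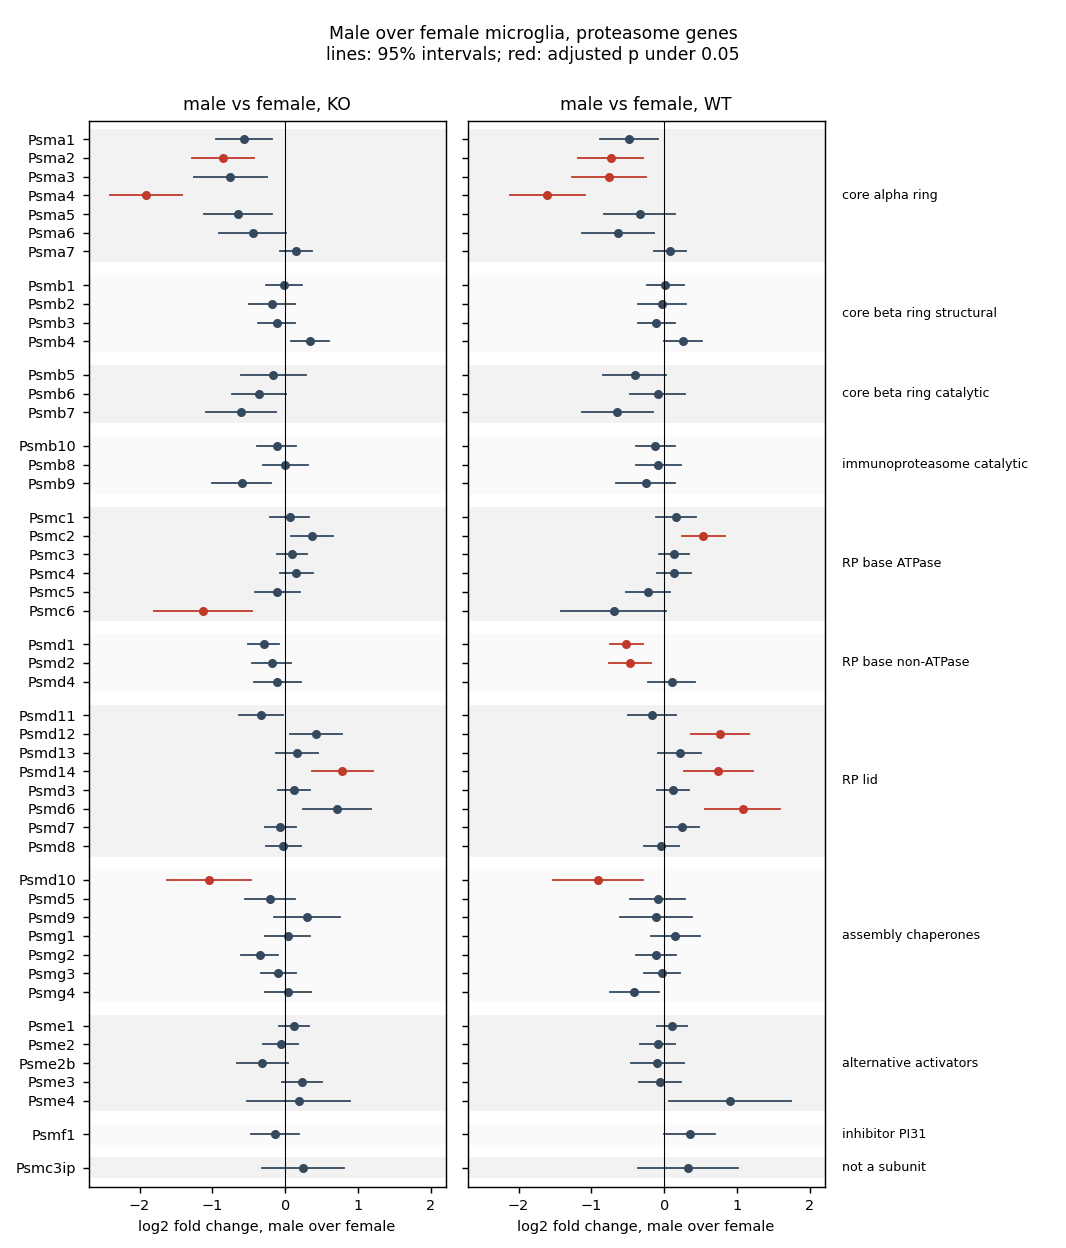
Log2 fold change of male over female libraries (horizontal axis) for the 48 tested genes (vertical axis, grouped by role) among KO (left) and WT (right) libraries, with 95% intervals; red marks an edgeR adjusted p under 0.05. Psma4 lies farthest to the left in both panels, at -1.91 in KO and -1.60 in WT.

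Psma4, an alpha-ring subunit whose tail takes part in closing the gate, was the clearest case. It had 13.9, 11.3, 21.9, 10.7 and 10.6 CPM in male KO replicates 36, 6, 9, 17 and 40, and 59.2, 28.9, 50.5 and 65.7 CPM in female KO replicates 33, 16, 1 and 7. It had 15.5, 15.2, 11.0, 15.6 and 19.4 CPM in male WT replicates 13, 37, 10, 11 and 14, and 40.3, 62.4, 41.0 and 43.4 CPM in female WT replicates 34, 39, 31 and 30. All 10 male libraries lay below all 8 female libraries, the only proteasome gene of 48 of which this held, against 1.85% of all genes. Psma4 was 3.76-fold lower in males among KO libraries (log2 fold change -1.91 ± 0.24, SE, edgeR adjusted p = 9.05e-05) and 3.04-fold lower among WT libraries (-1.60 ± 0.25, edgeR adjusted p = 0.000166). Ranked by p over the 10948 genes, it was 8th in the KO comparison and 130th in the WT comparison. The call held in all 29 alternatives in each comparison, with log2 fold changes of -2.15 to -1.40 in KO and -1.99 to -1.42 in WT. Within the middle range of reads per UMI, the only one that both sexes filled in each genotype, it was -1.40 in KO and -1.82 in WT (edgeR adjusted p = 0.0359 and 0.00898), though that range holds 1 male KO and 1 female WT library, which are assumed to vary like the others. Without female KO replicate 33 the KO value was -1.87 (edgeR adjusted p = 0.00021). Psma4 lies on an autosome (GRCm38, chr9:54950790-54958030, plus strand), and it did not differ by genotype (log2 fold change -0.24 in males and 0.07 in females, edgeR adjusted p = 0.692 and 0.939). The gene AY074887 overlaps it on the other strand, and since the strand of counting is not given their reads cannot be told apart, but AY074887 had at most 7 UMIs in any library.

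The remaining alpha-ring genes leaned the same way with smaller differences. Psma2 had 67.8 ± 10.1 CPM in male KO (n = 5) and 126 ± 29.6 CPM in female KO libraries (n = 4), and 59.4 ± 18.5 CPM in male WT (n = 5) and 99.8 ± 25.6 CPM in female WT libraries (n = 4). The KO groups did not overlap and the WT groups did. Its log2 fold change was -0.85 ± 0.21 in KO and -0.74 ± 0.22 in WT (SE, edgeR adjusted p = 0.0166 and 0.0226). In WT the call was lost without female WT replicate 34 or 31 or male WT replicate 13 or 37 (edgeR adjusted p = 0.0541, 0.128, 0.0566 and 0.0513), and in KO without female KO replicate 1 or 7 (edgeR adjusted p = 0.054 and 0.0924). Psma3 was at 54.8 ± 11.7 CPM in male WT and 94.6 ± 21.3 CPM in female WT libraries, a log2 fold change of -0.76 ± 0.25 (SE, edgeR adjusted p = 0.0375). Leaving out any 1 of 7 libraries ended that call, with edgeR adjusted p = 0.0506 to 0.132: female WT replicates 34, 39 and 30 and male WT replicates 13, 37, 10 and 14. Psma7 was the exception of the ring, with log2 fold changes of 0.15 in KO and 0.09 in WT.

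In the lid, 3 of 8 genes were called higher in male WT libraries and 1 of 8 in male KO libraries, and none of these calls held with the range of reads per UMI as a covariate. Psmd6, a structural lid subunit, had 71.8 to 106 CPM in male KO (median 85.6, n = 5) and 36.0, 82.5, 31.4 and 50.1 CPM in female KO replicates 33, 16, 1 and 7. It had 72.0 to 89.2 CPM in male WT (median 83.5, n = 5) and 22.4, 42.4, 56.8 and 25.6 CPM in female WT replicates 34, 39, 31 and 30. The WT groups did not overlap, and among KO libraries only female KO replicate 16 reached the male values. Psmd6 was 2.11-fold higher in male than female WT libraries (log2 fold change 1.079 ± 0.247, SE, edgeR adjusted p = 0.00489), and among KO libraries it was higher by 0.71 ± 0.23, which did not pass (edgeR adjusted p = 0.0596). Psmd12 was higher in male WT by 0.77 ± 0.19 (SE, edgeR adjusted p = 0.00841), and in KO by 0.42 ± 0.17, which did not pass (edgeR adjusted p = 0.137). The deubiquitinase Psmd14 was at 54.4 ± 10.3 CPM in male KO and 29.5 ± 11.99 CPM in female KO libraries, and at 42.3 ± 4.42 CPM in male WT and 24.4 ± 6.05 CPM in female WT libraries (SD, n = 5, 4, 5 and 4). Its log2 fold change was 0.78 ± 0.20 in KO and 0.74 ± 0.23 in WT (SE, edgeR adjusted p = 0.0219 and 0.0267). That call was lost without female WT replicate 34 or 30 or male WT replicate 37 in WT (edgeR adjusted p = 0.0624, 0.113 and 0.0572), and without female KO replicate 1 or 7 or male KO replicate 40 in KO (edgeR adjusted p = 0.0933, 0.0933 and 0.0524). The other 5 lid genes, Psmd3, Psmd7, Psmd8, Psmd11 and Psmd13, were not called by sex.

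**Figure D5:**
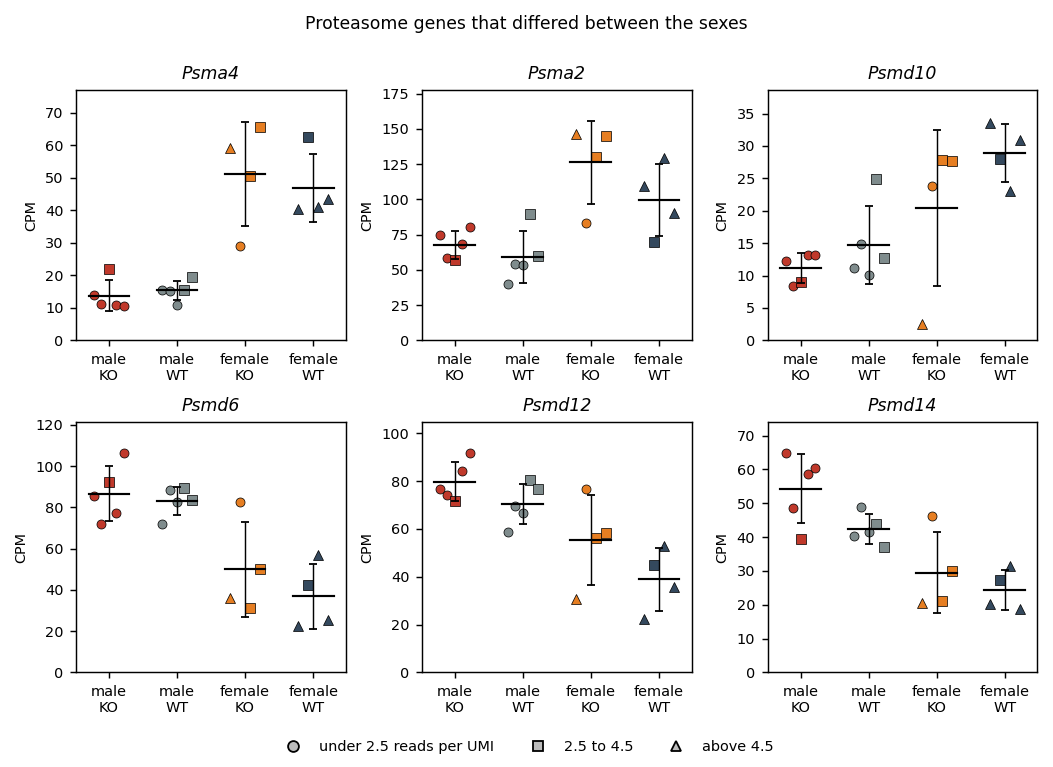
CPM (vertical axis) of 6 genes that differed between the sexes, in each library by group; symbols give the range of reads per UMI, horizontal bars the mean and whiskers the SD (n = 5, 5, 4 and 4). For Psma4 all male libraries, at 10.6 to 21.9 CPM, are below all female libraries, at 28.9 to 65.7 CPM, whatever their range.

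In the base, the scaffold subunits Psmd1 and Psmd2, which dock ubiquitin carriers and hold the base together, were lower in male than female WT libraries, by log2 fold changes of -0.52 ± 0.11 and -0.47 ± 0.14 (SE, edgeR adjusted p = 0.00226 and 0.0206). Psmd1 was at 80.01 ± 6.63 CPM in male WT (n = 5) and 115 ± 1.44 CPM in female WT libraries (SD, n = 4), with no overlap. The Psmd2 call was lost without female WT replicate 34 or 39 or male WT replicate 14 (edgeR adjusted p = 0.0572, 0.0683 and 0.0509). The ATPase Psmc2 was higher in male WT by 0.54 ± 0.14 (SE, edgeR adjusted p = 0.0136). Psmc6, another ATPase, was lower in male KO by -1.13 ± 0.33 (SE, edgeR adjusted p = 0.0389), at 25.3, 4.38, 29.4, 9.21 and 16.1 CPM in male KO replicates 36, 6, 9, 17 and 40 and 36.0, 33.1, 33.5 and 43.3 CPM in female KO replicates 33, 16, 1 and 7. The groups did not overlap, but the male KO libraries spread widely and the call was lost without any 1 of 7 libraries, with edgeR adjusted p = 0.0508 to 0.155: female KO replicates 33, 1 and 7, male KO replicates 6, 17 and 40, and male WT replicate 14.

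Psmd10, the base chaperone also known as gankyrin, is the one X-linked gene of those called. It was at 11.2 ± 2.35 CPM in male KO and 20.5 ± 12.1 CPM in female KO libraries, and at 14.7 ± 5.98 CPM in male WT and 28.9 ± 4.52 CPM in female WT libraries (SD, n = 5, 4, 5 and 4). Its log2 fold change was -1.04 ± 0.28 in KO and -0.91 ± 0.30 in WT (SE, edgeR adjusted p = 0.0269 and 0.038). Female KO replicate 33 held 1 UMI of it, at 2.57 CPM, and without that library the KO value was -1.19 (edgeR adjusted p = 0.00521). The WT call was lost without female WT replicate 34, 39 or 30 or male WT replicate 13, 37, 10 or 14, with edgeR adjusted p = 0.0632 to 0.118, and the KO call without female KO replicate 1 or 7 or male KO replicate 6, with edgeR adjusted p = 0.0622 to 0.122.

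The sex differences overlap with the ranges of reads per UMI. With the range as a covariate, 3 of 48 genes were called in WT (Psma3, Psma4 and Psma6) and 1 in KO (Psma4). Over all genes tested, that fit called 2.48% in WT and 2.98% in KO, against 17.3% and 7.1% in the main fit. The middle range alone leaves 1 library in a group of each comparison, so its calls are not counted here. For the other called genes that lost their call with the covariate, sex and range cannot be told apart. The markers of other cells also differed by sex: neutrophil markers, with all 9 of the list detected, summed to 301 to 618 CPM in male KO and 951 to 5890 CPM in female KO libraries, and to 313 to 1133 CPM in male WT and 2231 to 16630 CPM in female WT libraries. Monocyte markers, with all 7 detected, summed to 39.8 to 76.6 CPM in male KO and 97.3 to 203 CPM in female KO libraries, and to 46.1 to 69.4 CPM in male WT and 182 to 558 CPM in female WT libraries. Border-associated macrophage markers summed to 153 to 244 CPM in male KO and 183 to 263 CPM in female KO libraries, and to 30.9 to 58.2 CPM in male WT and 144 to 321 CPM in female WT libraries. The part of these cells in the sex differences was not tested.

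Genes that work with the proteasome but lie outside the symbol rule were read from 4 lists. Of 8 tested partners that bind the particle, 1 was called by genotype: the deubiquitinase Usp14, which trims ubiquitin at the base, was higher in KO on average, by 0.77 ± 0.21 on the log2 scale (SE, edgeR adjusted p = 0.0242). It was 0.57 with the range of reads per UMI as a covariate (edgeR adjusted p = 0.252). By sex, 3 of 8 were higher in males in each genotype, against 2.83% of all genes in KO and 6.94% in WT, and none was lower. These were Akirin2, which brings proteasomes into the nucleus, at 1.19 in KO and 1.31 in WT, and the thioredoxin-like Txnl1, at 1.21 in KO and 1.16 in WT, with the deubiquitinase Uchl5 called in KO (1.079) and Usp14 in WT (1.19). With the range as a covariate, only Txnl1 in KO was called (1.03, edgeR adjusted p = 0.024). Female KO replicate 16, the female library in the lowest range, had 169 CPM of Akirin2, against 26.3 to 77.7 CPM in the other female KO libraries and 176 to 209 CPM in male KO libraries. Of 8 regulators of proteasome genes, none was called by genotype and Ngly1, the glycanase that processes Nfe2l1, was higher in male KO libraries than female KO libraries, by 1.05 ± 0.21 (SE, edgeR adjusted p = 0.00462). Of 14 genes of ubiquitin supply and substrate delivery, none was called by genotype. Those called between male and female WT libraries included Rad23b, higher in males at 0.83. They also included 4 that were lower (Uba6 at -2.60, Rps27a at -0.69, Nploc4 at -0.48 and Uba1 at -0.42), against 10.3% of all genes lower. Uba6 was at low levels, 0.501 to 1.77 CPM in male WT and 5.06 to 8.96 CPM in female WT libraries. None of these 5 genes was called with the range as a covariate. Of 11 genes of class I presentation and its inducers, the peptide transporter gene Tap1 was higher in KO on average, by 0.27 ± 0.08 (SE, edgeR adjusted p = 0.0358; 0.16 and 0.293 with the range covariate), while its overlapping neighbour Psmb9 was not called. B2m, the class I light chain, was lower in males, by -1.004 in KO and -0.90 in WT (edgeR adjusted p = 0.00235 and 0.00175).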

How the data were processed

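Microglial libraries of 4 groups (18 libraries) were analysed. The values are UMI-corrected counts per gene as deposited, not normalised; per the submitters' processing notes, cutadapt, STAR and HTSeq were used with the mm10 build, with no versions stated. Symbols and coordinates come from GENCODE M21 (GRCm38). Another 16 library columns of the table could not be matched to these samples and were not used. Genes were filtered with filterByExpr (minimum count 10), scaled by TMM and tested with edgeR 4.0.16 (R 4.3.3) quasi-likelihood tests in 1 fit over all libraries, with Benjamini-Hochberg adjustment over all 10948 genes and a threshold of 0.05, and DESeq2 1.42.0 as an alternative. CPM divides by the library's UMIs on the genes tested, multiplied by its TMM factor. The common coefficient of variation was 17.8%. The fit was tested on simulated data. Each of 32 pairs of libraries within a group differed beyond sampling noise, and nothing in the labels says that libraries came from separate animals, so p-values measure the spread between these libraries. The strand of counting is not given: 10 proteasome genes overlap another gene on the same strand and 19 on the other strand. Ranges of reads per UMI were cut at 2.5 and 4.5. Members and lists were chosen with earlier results of these data known. Named genes were those called in any contrast, the catalytic subunits and their counterparts, Psme1 and Psme2, members on chromosome 14, the largest genotype difference in each role, and those failing the filter. A result for 1 gene of the pathway lists is not reported here.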

Additional observations from a re-analysis of the deposited data

Results flagged for a closer look

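Values that stood apart from the rest of their group were looked for with Dixon's criterion in 116 combinations of gene and group of 4 or 5 libraries, and 11 were found, where chance gives about 1 in 20. Of these, 7 were in female KO replicate 33: Psmb5 at 131 CPM against 53.6 to 64.4 in the other female KO libraries, Psmb6 at 538 against 224 to 262, Psmb8 at 646 against 351 to 374, Psmb9 at 332 against 135 to 152, and Psmd9, Psmd10 and Psmc3ip at 2.57 each, where 2.57 CPM is 1 UMI. The remaining values were Psme3 in female KO replicate 7 (90.3 CPM against 66.4 to 69.3), Psma4 in female WT replicate 39 (62.4 against 40.3 to 43.4), Psmb9 in female WT replicate 39 (182 against 145 to 151) and Psma3 in male WT replicate 11 (75.3 against 46.4 to 52.9).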

How the results depend on the processing

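Counts of called proteasome genes were recomputed under 30 alternatives. The share of all genes called also moved between them. On leaving out single libraries it was 4.44% to 8.46% for KO against WT in males. It was 0.636% to 6.09% in females and 7.02% to 14.2% averaged over the sexes. For male against female it was 9.79% to 21.8% in WT and 1.85% to 15.9% in KO. On read counts these shares were 1.83%, 1.12%, 3.96%, 9.8% and 2.57%, in the same order. No paired analysis was possible because the replicate numbers of the groups are all different. For KO against WT in males (1 called), DESeq2, the fit of the 2 groups alone, the lowest range alone, and leaving out the 2 shallowest libraries or those above 4.5 reads per UMI each gave 2; read counts, leaving out male KO replicates 6, 9 and 17, and the middle range alone gave 0; leaving out single libraries gave 0 to 2. In females (0 called), library totals gave 1, leaving out the 2 shallowest 2 and those above 4.5 reads per UMI 1, and single libraries gave 0 to 2, the 2 without KO replicate 33. Averaged (1 called), RLE, DESeq2, read counts, leaving out male KO replicates 6, 9 and 17, and the middle range alone gave 0, no filter gave 2 and leaving out the 2 shallowest 3, and single libraries gave 0 to 3. For male against female WT (10 called), read counts and the range covariate gave 3, leaving out libraries above 4.5 reads per UMI 2, the middle range alone 1, and single libraries 6 (without female WT replicate 34 or male WT replicate 37) to 12. For KO (5 called), no filter gave 11, DESeq2 9, read counts 2, the 2 groups alone 3, the covariate 1, leaving out male KO replicates 6, 9 and 17 1, the middle range alone 3, and single libraries 1 (without female KO replicate 1 or 7) to 14 (without female KO replicate 16). The difference of KO effects between the sexes gave 0 throughout. Of 17 called differences, 16 kept their sign in every alternative; Psma2 in male against female WT was 0.12 in the middle range alone. The causes were not tested. Settings with libraries above 4.5 reads per UMI left out, or the middle range alone, were added after seeing the data. The shallowest libraries limit genes at a few UMIs.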
